A study of Mus musculus with 24 samples.

Results

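The G1 cyclins and their kinases are described here as 8 genes out of the 23283 in the count table: the D cyclins Ccnd1, Ccnd2 and Ccnd3, the E cyclins Ccne1 and Ccne2, and the kinases Cdk2, Cdk4 and Cdk6. They were chosen by name as the D and E cyclin and G1 kinase genes, and all 8 were found. Messenger RNA was counted in 24 mouse libraries of 6 groups, each library made from the cytosolic RNA of 1000 cells. Bulk MEF (4 libraries) are mouse embryonic fibroblasts grown in DMEM with serum and given no treatment. Slow MEF and fast MEF (4 each) come from fibroblasts in which doxycycline (2 ug/ml) induced the Yamanaka reprogramming factors for 6 days in embryonic stem cell medium with LIF, and which were separated by their dilution of CFSE, a dye that is thinned out at each division, over 48 hours. The iPS group (4 libraries) are induced pluripotent stem cells that no longer need the factors, grown in the same medium with no doxycycline and sorted for an Oct4:GFP reporter. Slow GMP (3) and fast GMP (5) are granulocyte monocyte progenitors, committed blood progenitors of neutrophils and monocytes, grown with cytokines that include SCF, IL3 and Flt3L and separated by 24 hours of CFSE dilution. The labels call bulk MEF slow and unsorted and iPS fast. Bulk MEF therefore differ from fast and slow MEF in factors, medium, dye and gate together. What strain and age were used, what drives the factors and whether replicates came from separate animals or cultures is not given in the sources used here. Accordingly p-values weigh differences between groups only against the scatter of these libraries, and that scatter may be technical.

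D cyclins bind Cdk4 or Cdk6 in early G1, in response to growth signals, and these complexes start the phosphorylation of the retinoblastoma proteins. E2f factors are thereby released and switch on the genes of DNA replication, among them the E cyclins, which activate Cdk2 at the entry to S phase. The 3 D cyclins share a mechanism but differ in which tissues express them. Embryonic stem cells are known for a short G1 and for cyclin E and Cdk2 activity that changes little over the cycle, while myeloid progenitors are known to depend on Cdk6 and Ccnd3.

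In the GENCODE M21 annotation on GRCm38, Ccnd1 lies on chromosome 7 at 144929931 to 144939925 and Ccne1 on the same chromosome at 38097984 to 38107534. Cdk2 (128697939 to 128705031) and Cdk4 (127063534 to 127067920) both lie on chromosome 10. Ccnd2 lies on chromosome 6 at 127125162 to 127152193, Ccnd3 on 17 at 47505051 to 47599691, Ccne2 on 4 at 11191351 to 11204779 and Cdk6 on 5 at 3341485 to 3531008. Their principal transcripts differ in length far more than their coding parts. Among D cyclins the transcript of Ccnd2 has 6330 bases, that of Ccnd1 3740 and that of Ccnd3 2064, while the coding parts have 867, 885 and 876 bases. Cdk6 has 11525 bases of transcript and 978 of coding sequence, against 2053 and 909 for Cdk4. Counts were therefore divided by transcript length wherever one gene is set against another.

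RefSeq promoter windows on GRCm38.p6, from 250 bases before to 50 after the start site, were given for 5 of the 8 members (6 windows, since Ccnd3 has 2), and none for Ccnd1, Ccnd2 and Ccne2. Those of Cdk4, Cdk2 and Ccne1 are shown because these genes, together with Ccnd3, were higher in iPS than in bulk MEF in the tests that follow. They read 5′ to 3′ along the gene, from chr10:127063285-127063584 on the plus strand for Cdk4, chr10:128705002-128705301 on the minus strand for Cdk2 and chr7:38107441-38107740 on the minus strand for Ccne1. Capitals mark E-boxes in Cdk4, an E2F match and a CCAAT box in Cdk2, and GC boxes in Ccne1. GC boxes of the Cdk4 and Cdk2 windows are left in lower case.
Cdk4: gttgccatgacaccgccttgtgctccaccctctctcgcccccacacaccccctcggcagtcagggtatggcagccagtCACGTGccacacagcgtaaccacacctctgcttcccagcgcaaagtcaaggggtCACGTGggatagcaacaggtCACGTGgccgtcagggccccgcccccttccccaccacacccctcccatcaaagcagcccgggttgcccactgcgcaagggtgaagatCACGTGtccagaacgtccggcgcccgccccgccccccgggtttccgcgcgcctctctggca
Cdk2: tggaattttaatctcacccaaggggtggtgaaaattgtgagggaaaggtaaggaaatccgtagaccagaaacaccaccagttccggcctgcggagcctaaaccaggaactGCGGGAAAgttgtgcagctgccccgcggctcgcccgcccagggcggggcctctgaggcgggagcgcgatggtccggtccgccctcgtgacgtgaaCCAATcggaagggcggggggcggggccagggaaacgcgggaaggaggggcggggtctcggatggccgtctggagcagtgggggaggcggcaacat
Ccne1: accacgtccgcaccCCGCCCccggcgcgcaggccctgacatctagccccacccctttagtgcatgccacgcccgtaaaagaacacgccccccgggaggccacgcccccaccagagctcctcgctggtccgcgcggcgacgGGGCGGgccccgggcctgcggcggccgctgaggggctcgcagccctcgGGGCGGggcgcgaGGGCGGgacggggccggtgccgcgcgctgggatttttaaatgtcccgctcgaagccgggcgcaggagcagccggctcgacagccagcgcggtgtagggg
Both strands were searched. The E-box CACGTG, the letters bound by Myc and related factors, occurs 4 times in the Cdk4 window, at -172, -118, -98 and -11 from the start site. At least 1 such match is in 7.15% of 32851 promoter windows of the same length, and at least 4 are in 8 of them (0.0244%). The Cdk2 window holds 1 match (GCGGGAAA, at -140) to the E2F letters TTTCCCGC, TTTCGCGC, TTTGCCGC or TTTGGCGC, which 2.265% of windows hold, and a CCAAT box at -45, which 37.408% hold. The Ccne1 window is 76% G and C and has 4 GC boxes (GGGCGG or its reverse complement), a motif found at least 1 time in 35.658% and at least 4 times in 5.49% of windows, and none of these E2F, E-box or CCAAT letters. GC boxes are not particular to Ccne1, since the Cdk2 window holds 6 and the Cdk4 window 3. The windows of Ccnd3 and Cdk6 are not shown. Neither Ccnd3 window holds a match to the E2F letters or the E-box, and the Cdk6 window holds 1 E-box, at -220. A match is a description of the letters and not a bound site.

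Library totals ran from 2098846 to 4411526 counts in the 8 GMP libraries and from 4937453 to 18648132 in the other 16. Rn45s and Lars2, genes that collect ribosomal RNA reads, took 19.901% to 48.859% of the counts in GMP and 3.049% to 11.727% elsewhere, and fast GMP replicate 1 had counts in 18402 genes and replicate 5 in 9380. No 2 libraries of a group were identical. The marker lists followed the labels: the summed level of 7 fibroblast markers was 22760 to 43510 CPM in bulk MEF (CPM is a gene's count scaled to a common library size, with TMM factors over all 24 libraries), that of 7 pluripotency markers 2128 to 3498 CPM in iPS, and that of 8 myeloid markers 4888 to 25830 CPM in GMP against at most 40.3 CPM in the other groups. Fast MEF held 1884 to 4817 CPM of the fibroblast markers and 8312 to 13690 CPM of 6 epithelial markers, where slow MEF held 40810 to 78880 and 36.1 to 566 CPM. All 6 epithelial markers had counts in every group, and which of them made up the sum is not reported here. Pluripotency markers summed to 225 to 511 CPM in fast MEF and 5.77 to 21.1 CPM in slow MEF, against 0.658 to 22.3 CPM in bulk MEF. That list includes Pou5f1 and Sox2, which are themselves Yamanaka factors, and the part of the induced copies in these sums was not tested. The dye gates in MEF thus differed in marker genes as well as in cycling, and the part of this difference in the results on cyclins was not tested.

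Ccnd1, the D cyclin best known for induction by growth factors, stood highest in fast MEF. Levels were 1057, 1138, 1909 and 1363 CPM in the 4 fast MEF libraries. Slow MEF had 232, 240.2, 212 and 129 CPM, bulk MEF 562, 284, 258 and 404 CPM, and iPS 316, 252, 267 and 327 CPM. In GMP the gene was close to absent, with 1.09, 23.3 and 8.03 CPM in slow GMP and 9.75, 3.05, 11.4, 4.14 and 3.69 CPM in fast GMP, from 3 to 75 counts per library. Exons of Oraov1 on the opposite strand, named for this overlap, cover 23.36% of the exon bases of Ccnd1, and Oraov1 itself stood at 2.94 ± 2.28 CPM in slow GMP (SD, n = 3) and 4.49 ± 4.30 CPM in fast GMP (SD, n = 5), so at these low counts reads of the 2 genes cannot be told apart in the shared bases. Every fast MEF library lay above every other library, and every GMP library lay below every other library. From the highest mean to the lowest the groups ran fast MEF, bulk MEF, iPS, slow MEF, slow GMP and fast GMP. Of these neighbours bulk MEF overlapped iPS and the GMP groups overlapped each other, while the other neighbours did not overlap.

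Each fit tested all genes with enough counts, and a gene was called at a Benjamini-Hochberg adjusted p under 0.05 in edgeR's quasi-likelihood test. Ccnd1 rose in fast over slow MEF by 2.62 ± 0.30 on the log2 scale (SE; adjusted p = 0.000173 in edgeR) and in fast over bulk MEF by 1.8 ± 0.31 (0.00145). It was lower in iPS than in fast MEF by a log2 fold change of -2.26 ± 0.24 (0.000112). In fast GMP it was lower than in fast MEF by -7.48 ± 0.65 (5.72e-05), from a mean of 1366 ± 384 CPM (SD, n = 4) to 6.42 ± 3.88 CPM (SD, n = 5). These tests share the fast MEF libraries and are not independent of each other.

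**Figure D1:**
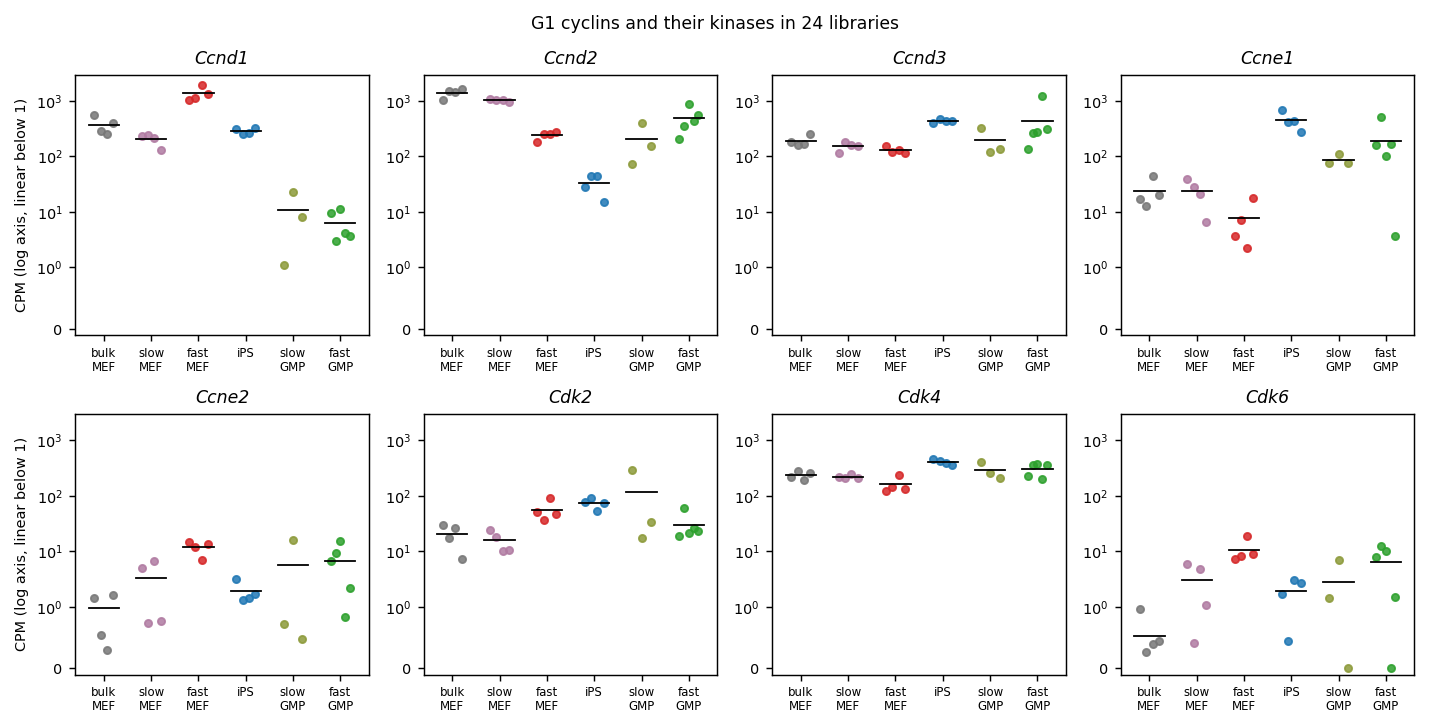
Level of each of the 8 genes in every library, in CPM on an axis that is logarithmic above 1 and linear below it; points are libraries, bars are group means, and groups run from bulk MEF to fast GMP. Ccnd1 is highest in the 4 fast MEF libraries (1057 to 1909 CPM), Ccnd2 is lowest in iPS (15.2 to 45.3 CPM) and Ccne1 spreads from 3.69 to 511 CPM within fast GMP.

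Ccnd2 had nearly the reverse order among fibroblasts. It stood at 1043, 1502, 1459 and 1667 CPM in bulk MEF and at 1093, 1060, 1026 and 970.3 CPM in slow MEF, against 179.5, 258, 254 and 272 CPM in fast MEF. In iPS it was lowest, with 28, 43.9, 45.3 and 15.2 CPM. The GMP libraries spread widely, with 73.8, 403 and 152 CPM in slow GMP and 206, 355, 893, 429 and 549.5 CPM in fast GMP. Bulk and slow MEF overlapped each other and lay above all other libraries, and iPS lay below all other libraries. The mean order was bulk MEF, slow MEF, fast GMP, fast MEF, slow GMP and iPS, in which fast GMP, fast MEF and slow GMP overlapped.

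Ccnd2 fell in fast compared with slow MEF by 2.25 ± 0.20 (log2 and SE; edgeR adjusted p = 4.71e-05) and compared with bulk MEF by 2.64 ± 0.23 (1.73e-05). The mean in iPS was 33.1 ± 14.3 CPM against 1418 ± 265 CPM in bulk MEF (SD, n = 4 each), a log2 fold change of -5.46 ± 0.39 (8.76e-06). Between iPS and fast MEF the log2 fold change was -2.88 ± 0.36 (0.000251). Between slow and bulk MEF it was -0.42 ± 0.18 and did not pass (0.175). Fast MEF therefore held more Ccnd1 and less Ccnd2 mRNA than slow MEF, and both differences kept their call in all 15 alternative analyses.

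Ccnd3, the D cyclin with the broadest expression in blood cells, varied least among the D cyclins, with a ratio of 3.39 between its highest and lowest group means, against 42.8 for Ccnd2 and 213 for Ccnd1. The iPS libraries held 401, 467, 439.7 and 432 CPM and lay above all 12 libraries of the MEF groups. Fast MEF had 155, 118, 128 and 116 CPM, slow MEF 115, 183, 158 and 153 CPM, and bulk MEF 180.1, 161, 166 and 258 CPM. In slow GMP it stood at 325, 122 and 138 CPM and in fast GMP at 139, 262, 275, 1212 and 309.8 CPM. Fast GMP replicate 4 thus lay far above the others, and with it the fast GMP mean of 439.6 ± 437 CPM came next to that of iPS, 435 ± 27.2 CPM. Ccnd3 rose in iPS over fast MEF by 1.73 ± 0.18 on the log2 scale (edgeR adjusted p = 8.42e-05) and over bulk MEF by 1.15 ± 0.22 (0.00173). The latter call was lost with all 24 libraries in 1 fit (adjusted p = 0.109). Exons of Bysl on the opposite strand, named for this overlap, cover 4.114% of the exon bases of Ccnd3. Bysl was itself higher in iPS than in fast MEF (1.11, edgeR adjusted p = 0.0179) and bulk MEF (1.48, 0.00708). It was also higher in fast than in slow MEF (1.54, 0.00445), where Ccnd3 did not pass. Its part in the Ccnd3 values was not tested. No difference of Ccnd3 between the 3 MEF groups passed. Fast GMP against fast MEF did not pass (1.97 ± 0.64; 0.0649), but did with DESeq2 (0.00987), with all 24 libraries in 1 fit (0.0146), with thinned counts (0.0483) and without fast GMP replicate 1 (2.27; 0.0201). In the other 12 of 16 alternatives it did not pass (edgeR adjusted p up to 0.1885). Over all 16 the difference ran from 1.17 to 2.27.

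Other scales are given in the next paragraph, and here the levels of the 3 D cyclins were set against each other per kilobase of principal transcript. On that scale Ccnd2 led in 4 of 4 bulk MEF and 4 of 4 slow MEF libraries, Ccnd1 in 4 of 4 fast MEF libraries and Ccnd3 in 4 of 4 iPS libraries. In bulk MEF the mean shares were 53.8 ± 9.29% Ccnd2, 24.2 ± 8.90% Ccnd1 and 22.0 ± 2.25% Ccnd3 (SD, n = 4). Slow MEF were close to them, with 56.3 ± 3.33% Ccnd2 and 18.4 ± 3.63% Ccnd1. In fast MEF the share of Ccnd1 was 77.7 ± 4.34% and that of Ccnd2 8.33 ± 1.66%, with no overlap with slow or bulk MEF in either. In iPS the share of Ccnd3 was 71.7 ± 3.01%, that of Ccnd1 26.5 ± 3.62% and that of Ccnd2 1.78 ± 0.76%.

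In GMP the share of Ccnd1 was at most 4.82% in any library. Ccnd3 led in 2 of 3 slow GMP and 4 of 5 fast GMP libraries and Ccnd2 in the rest, with mean shares of Ccnd3 of 70.2 ± 23.6% (SD, n = 3) and 67.1 ± 14.9% (SD, n = 5). The choice of length decided this order. Per kilobase of coding sequence, per kilobase of all annotated exons, or on counts alone, Ccnd2 led in 2 of 3 slow GMP and 4 of 5 fast GMP libraries, so the lead of Ccnd3 in GMP held on 1 of 4 scales. On the scale of all exons, Ccnd1 led in 4 of 4 iPS libraries (53.6% against 43.3% for Ccnd3) and in 1 of 4 bulk MEF libraries. The lead of Ccnd2 in slow MEF and of Ccnd1 in fast MEF was the same on all 4 scales.

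**Figure D2:**
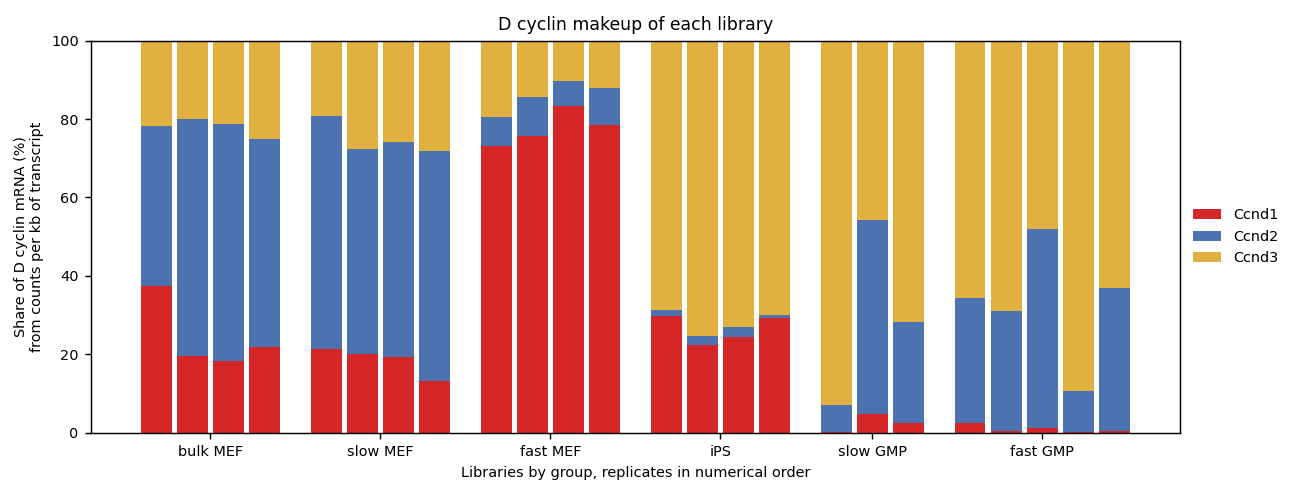
Share of Ccnd1, Ccnd2 and Ccnd3 in the summed D cyclin level of each library, in percent, from counts per kilobase of principal transcript; each bar is 1 library and bars are grouped by cell population. Ccnd2 fills the largest part in bulk and slow MEF, Ccnd1 in fast MEF (73.2% to 83.3%) and Ccnd3 in iPS (68.6% to 75.3%).

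The sum of the 3 D cyclins was 466 ± 103 CPM per kilobase in fast MEF, 417 ± 53.4 in bulk MEF, 292 ± 24.0 in slow MEF and 294 ± 8.02 in iPS (SD, n = 4 each). Fast GMP held 292 ± 214 (n = 5) and slow GMP 131 ± 38.2 CPM per kilobase (n = 3). The near equality of slow MEF, iPS and fast GMP held on this scale only. Per kilobase of coding sequence their means were 1600, 863 and 1070 CPM per kilobase. Fast MEF libraries, from 386 to 613, did not overlap slow MEF, from 262 to 320.2 CPM per kilobase. All libraries are of RNA from many cells, so fewer cells with a transcript and less of it per cell cannot be told apart.

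Ccne1, which activates Cdk2 at the start of S phase, was high in iPS and low in all MEF. The iPS libraries held 685, 424, 442 and 271 CPM. Bulk MEF had 16.8, 12.7, 44.1 and 20.6 CPM, slow MEF 39.5, 28.3, 21.5 and 6.63 CPM, and fast MEF 3.72, 7.25, 2.25 and 17.5 CPM. GMP lay between, at 76, 112 and 75.6 CPM in slow GMP and 161, 511, 102, 167 and 3.69 CPM in fast GMP. All iPS libraries lay above all 12 MEF libraries, and fast GMP covered almost the whole range, with replicate 5 at only 5 counts. The mean order was iPS, fast GMP, slow GMP, slow MEF, bulk MEF and fast MEF, and slow GMP and slow MEF were the only neighbours that did not overlap.

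Ccne1 rose in iPS over bulk MEF by 4.23 ± 0.48 on the log2 scale (edgeR adjusted p = 9.54e-05) and over fast MEF by 5.88 ± 0.64 (0.000122). Fast MEF, although sorted as fast cycling, had 7.68 ± 6.88 CPM against 24 ± 13.7 CPM in slow MEF (SD, n = 4 each). That log2 fold change of -1.81 ± 0.71 did not pass (0.0776), and it passed in 3 of 15 alternatives: with DESeq2 (0.0352), without slow MEF replicate 4 (-2.12; 0.0377) and without fast MEF replicate 4 (-2.60; 0.0258). In fast GMP Ccne1 was higher than in fast MEF by 4.89 ± 1.2 (0.0187), although 1 fast GMP library lay within the fast MEF range. That call was lost without fast MEF replicate 1, 2 or 3 (adjusted p up to 0.0716).

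Ccne2, the second E cyclin, was scarce everywhere, from 1 to 166 counts per library. Fast MEF held 14.6, 12.1, 6.91 and 13.3 CPM against 4.96, 0.729, 6.62 and 0.769 CPM in slow MEF and 1.45, 0.542, 0.302 and 1.64 CPM in bulk MEF. The iPS libraries held 3.18, 1.33, 1.44 and 1.68 CPM. Fast MEF lay above slow MEF, bulk MEF and iPS with no overlap, while GMP ranged from 0.472 to 15.8 CPM and overlapped all groups. Ccne2 rose in fast over bulk MEF by 3.47 ± 0.67 (log2 and SE; edgeR adjusted p = 0.00261) and was lower in iPS than in fast MEF by -2.63 ± 0.52 (0.00317). Both calls were lost with all 24 libraries in 1 fit (0.0534 and 0.127). Against slow MEF the difference of 1.69 ± 0.77 did not pass (0.124). Exons of Ints8 on the opposite strand cover 17.425% of the exon bases of Ccne2, and Ints8, named for this overlap, was itself higher in fast than in bulk MEF by 1.67 (0.00654), with 277 to 440 counts per fast MEF library. The strand setting of the counting is not given, so reads of the 2 genes cannot be told apart in the shared bases.

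Per kilobase, Ccne1 made up 96.6 ± 2.30% of the E cyclin level in bulk MEF, 91.6 ± 6.36% in slow MEF and 99.7 ± 0.0954% in iPS (SD, n = 4 each). In fast MEF its share was 43.6 ± 17.3%, from 27.7% to 66.4%, below every library of the other 5 groups, of which the lowest was a fast GMP library at 71.5%. The sum of both was 7.75 ± 4.06 CPM per kilobase in fast MEF, 13.1 ± 7.32 in slow MEF and 228 ± 85.8 in iPS. The E cyclin sum of fast MEF was thus the lowest mean of the 6 groups. Its libraries, from 3.42 to 13.2 CPM per kilobase, overlapped slow MEF (3.57 to 21.4) and bulk MEF (6.51 to 22.15), and the lowest fast GMP library stood at 2.58. The D cyclin sum of fast MEF had the highest mean per kilobase of transcript, but per kilobase of coding sequence bulk MEF stood higher (2280 against 1970 CPM per kilobase).

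Cdk2, the partner of the E cyclins, followed the dye gates in MEF. Fast MEF held 50, 36.2, 91.2 and 47 CPM, slow MEF 24.1, 18.1, 10.2 and 10.4 CPM, bulk MEF 30, 17.1, 26.1 and 7.23 CPM, and iPS 77, 90.2, 54.1 and 74.2 CPM. Fast MEF and iPS overlapped each other and lay above all bulk and slow MEF libraries. In GMP slow replicate 1 stood at 297 CPM, above all other libraries, with 17.1 and 34 CPM in the other slow GMP libraries and 18.6 to 59.5 CPM in fast GMP. Cdk2 rose in fast over slow MEF by 1.72 ± 0.45 on the log2 scale (edgeR adjusted p = 0.0152) and in iPS over bulk MEF by 1.83 ± 0.45 (0.0075). Both calls were lost with all 24 libraries in 1 fit (0.106 and 0.0632). The rise in fast over bulk MEF, 1.42 ± 0.50 (0.0479), was lost in 8 of 15 alternatives, among them without bulk MEF replicate 2, 3 or 4 and without fast MEF replicate 1, 3 or 4 (0.0594 to 0.102).

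Cdk4, a partner of the D cyclins, was the most even of the 8 genes. Its group means ran from 160 ± 54.0 CPM in fast MEF to 407 ± 38.2 CPM in iPS (SD, n = 4 each). The iPS libraries held 452, 418, 396 and 362 CPM, above all MEF libraries, while fast MEF had 123, 145, 239.8 and 132 CPM and slow MEF 219.6, 212, 242 and 208 CPM. Every pair of neighbours in the order iPS, fast GMP, slow GMP, bulk MEF, slow MEF and fast MEF overlapped. Cdk4 rose in iPS over fast MEF by 1.32 ± 0.26 (log2 and SE; edgeR adjusted p = 0.00353) and over bulk MEF by 0.74 ± 0.21 (0.0131), the latter lost with all 24 libraries in 1 fit (0.153). Fast MEF did not differ from slow MEF at the threshold (-0.58 ± 0.28; 0.133), and was lower without fast MEF replicate 3 (-0.85; 0.0133). Tspan31, named because its exons on the opposite strand cover 19.729% of the exon bases of Cdk4, was lower in iPS than in bulk MEF (-0.67; 0.0384), opposite to Cdk4, and lower in fast than in slow MEF (-0.89; 0.0131), the sign that Cdk4 had there. Its part in these values was not tested.

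Cdk6, the other partner of the D cyclins, was scarce, with 0 to 110 counts per library. Fast MEF held 7.17, 8.15, 18.8 and 8.84 CPM, against 5.8, 0.405, 4.75 and 1.06 CPM in slow MEF, 0.964, 0.271, 0.403 and 0.438 CPM in bulk MEF and 1.67, 0.442, 2.98 and 2.64 CPM in iPS. Fast MEF lay above the other MEF groups and iPS with no overlap. GMP libraries ranged from 0 to 12.6 CPM. Slow GMP replicate 3 and fast GMP replicate 4 had no count, and a count of 0 allows up to 1.43 and 0.836 CPM at their depths. Cdk6 rose in fast over bulk MEF by 4.29 ± 0.70 (log2 and SE; edgeR adjusted p = 0.00103), from 3 to 10 counts per bulk MEF library, and was lower in iPS than in fast MEF by -2.50 ± 0.68 (0.0163; 0.198 with all 24 libraries in 1 fit). Against slow MEF the difference of 1.72 ± 0.83 did not pass (0.142). The gene had too few counts to be tested in slow against bulk MEF and in iPS against bulk MEF.

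Per kilobase, Cdk4 made up at least 98.6% of the summed Cdk4 and Cdk6 level in each of the 24 libraries. The mean share of Cdk6 was highest in fast MEF, at 1.15 ± 0.175%, and was 0.0407 ± 0.0266% in bulk MEF, 0.235 ± 0.207% in slow MEF and 0.0871 ± 0.0552% in iPS (SD, n = 4 each). In fast GMP it was 0.353 ± 0.295% (SD, n = 5). The transcript of Cdk6 is the longest of the 8, and on counts without division by length the share of Cdk4 was 93.9% in fast MEF. Cdk4 thus led on every scale tried.

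**Figure D3:**
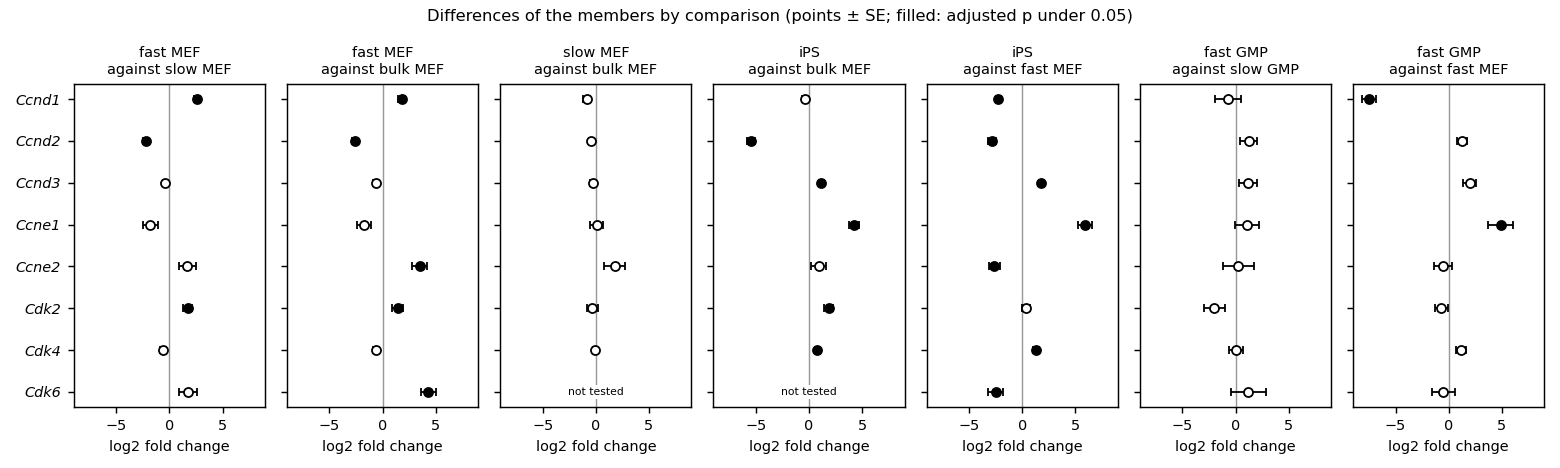
Difference of each gene in each of 7 comparisons, as log2 fold change with its SE; filled points passed an adjusted p of 0.05 in edgeR, and panels of Cdk6 marked as not tested had too few counts. In fast against slow MEF the filled points are Ccnd1, Ccnd2 and Cdk2, and in fast against slow GMP no point is filled.

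Counted over the 8 genes, 3 of 8 passed in fast against slow MEF (2 higher, 1 lower), where 31.7% of all 11742 genes tested passed (14.4% higher, 17.3% lower). In fast against bulk MEF 5 of 8 passed (4 higher, 1 lower; 34.9% of all genes, 16.5% higher and 18.4% lower), in iPS against bulk MEF 5 of 7 (4 higher, 1 lower; 47.4%, 24.1% and 23.3%) and in iPS against fast MEF 7 of 8 (3 higher, 4 lower; 38.4%, 18.8% and 19.7%). In slow against bulk MEF 0 of 7 passed, where 10.5% of genes did (5.51% higher, 4.99% lower); edgeR gave 2 of the 7, Ccnd1 and Ccnd2, an unadjusted p under 0.05 (0.0155 and 0.0434), and no alternative called any. In fast GMP against fast MEF 2 of 8 passed, 1 higher and 1 lower (13.5% of genes, 6.92% higher and 6.55% lower). The counts are small, and a share near that of all genes says nothing particular about these 8.

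Fast and slow GMP were compared to ask whether the dye gates of a blood progenitor differ in the same genes. None of the 8 passed, and neither did any of 10057 genes tested (0%; edgeR gave 742 genes an unadjusted p under 0.05 and DESeq2 called 86 genes). None of the 8 had an unadjusted edgeR p under 0.05 here. The mean of Ccnd2 was 487 ± 259 CPM (SD, n = 5) in fast GMP and 209.8 ± 172 CPM (SD, n = 3) in slow GMP, a log2 fold change of 1.24 ± 0.81 (adjusted p = 0.736). Cdk2 had the largest difference, -1.98 ± 1.0 (0.675), and it was 0.28 without slow GMP replicate 1. All 8 genes overlapped between the gates. The share of all genes that did so was not counted, so nothing particular to these 8 is read from it.

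The gate difference in MEF was also tested against that in GMP in 1 fit, where 1.4% of genes passed (0.601% with a positive and 0.796% with a negative value). Ccnd2 passed, with an interaction of -3.48 ± 0.81 on the log2 scale (edgeR adjusted p = 0.038): lower in fast than in slow MEF, and not lower in fast than in slow GMP. The call was lost without any 1 of the 8 MEF libraries, of slow GMP replicates 1 and 3 or of fast GMP replicate 3, 11 of the 16 libraries in all (0.0508 to 0.0832), and with the replicate number as a block (0.0905). Ccnd1 (3.36 ± 0.94; 0.0691) and Cdk2 (3.70 ± 1.14; 0.0867) did not pass, although both did with DESeq2 (0.0129 and 0.0121) and with all 24 libraries in 1 fit (0.0149 and 0.0245), and Ccnd1 did without slow GMP replicate 1 (3.99; 0.0225) or fast GMP replicate 1 (3.52; 0.0487). Whether the gate difference of Ccnd1 and Cdk2 differs between MEF and GMP thus depended on the fit and, for Ccnd1, on single GMP libraries. For Cdk2 leaving out single libraries changed no call, but moved the value between 1.535 and 4.18. Slow GMP replicate 1 held 297 CPM of Cdk2 against 17.1 and 34 CPM in the other slow GMP libraries.

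The other genes of the pathway were read from 7 lists with 94 members, all found in the table. In fast against slow MEF 5 of 6 tested inhibitors of cyclin-dependent kinases fell and none rose, with a median log2 fold change of -3.17 against -0.11 over all genes tested. Of all genes tested 17.3% were lower and 14.4% higher. Cdkn1c, which binds and blocks G1 kinases, went from 50.4 ± 26.8 to 1.33 ± 0.815 CPM (log2 fold change -5.36 ± 0.64, edgeR adjusted p = 0.000224). Cdkn2b, an inhibitor of Cdk4 and Cdk6, went from 54.2 ± 12.5 to 5.01 ± 2.96 CPM (-3.59 ± 0.49; 0.00047), and Cdkn1b, which binds Cdk2 complexes, from 19.5 ± 26.4 to 1.83 ± 0.933 CPM (-3.56 ± 0.99; 0.0198).

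Downstream, 14 of 20 E2f targets of S phase entry rose in fast over slow MEF and none fell (median 2.25), where 14.4% of all genes were higher and 17.3% lower. Mcm5, a subunit of the replicative helicase, stood at 290.5 ± 19.3 against 18.7 ± 9.74 CPM, Cdt1, which loads that helicase, at 28.4 ± 8.54 against 2.76 ± 2.08 CPM, and Mcm2 at 124 ± 41.3 against 15.7 ± 3.73 CPM. Of the Rb and E2f genes 3 of 13 rose and none fell: E2f2 (4.69 ± 1.12), the repressor E2f7 (3.07 ± 0.74) and Rb1, the retinoblastoma gene itself (1.99 ± 0.57). The phosphatases Cdc25b (3.72 ± 0.48) and Cdc25a (2.12 ± 0.46), which activate cyclin-dependent kinases, and Ccna2, the S phase cyclin (2.40 ± 0.41), were among 4 of 11 genes of kinase activation that rose. The counts of the Rb and E2f genes and of kinase activation are small, and nothing is read from them. The E2f targets rose in fast MEF while Ccne1, itself a known E2f target, did not pass and had the lower mean.

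Over all genes 14.4% were higher and 17.3% lower in fast than in slow MEF, and nothing is read from the counts of the next 3 lists. Of 13 genes of G1 cyclin turnover, 1 rose and 2 fell. Skp2, the F-box protein that marks Cdkn1b for degradation, rose by 1.57 ± 0.46, while Fbxo4 (-2.15 ± 0.58) and its partner Cryab (-1.17 ± 0.32), both linked to the degradation of Ccnd1, fell. Of 14 other cyclins tested, 4 rose and 3 fell, with Ccnb1 of mitosis at 2.53 ± 0.46 and Ccng2, linked to arrest, at -5.52 ± 1.07. Of 14 other cyclin-dependent kinases 3 rose and none fell.

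**Figure D4:**
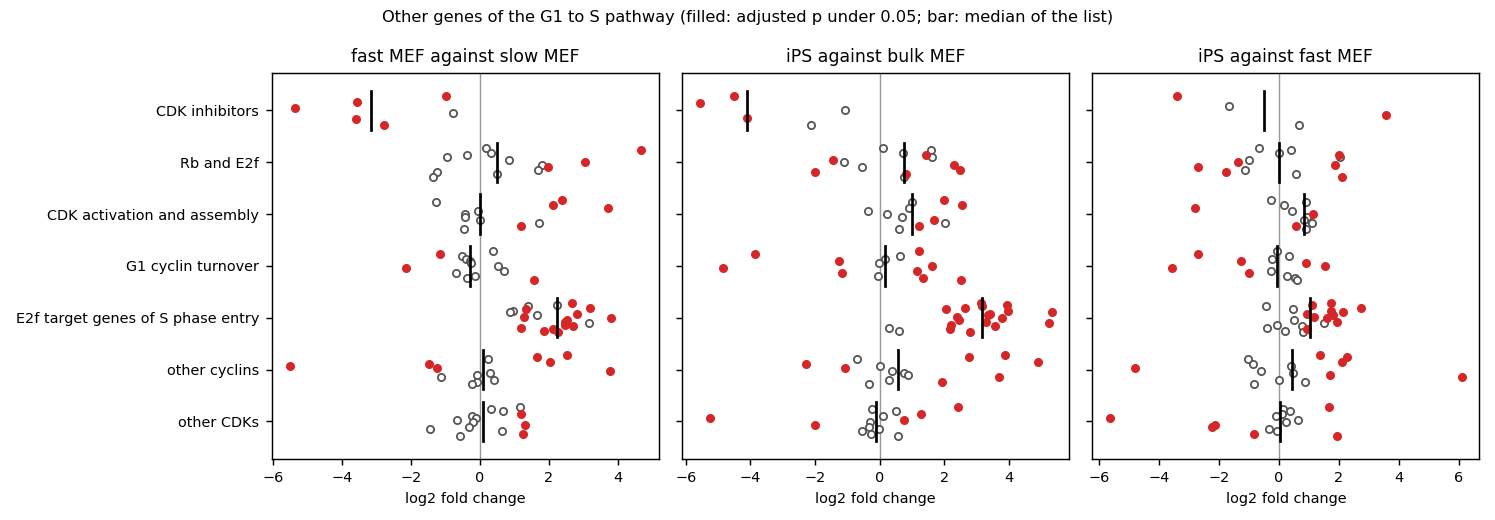
Log2 fold change of each tested gene of 7 pathway lists in 3 comparisons, named above each panel; each point is a gene, filled where the adjusted p in edgeR was under 0.05, and the bar is the median of the list. The E2f targets lie to the right in all 3 panels (medians 2.25, 3.15 and 1.04) and the inhibitors to the left in the first 2 (medians -3.17 and -4.11).

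In iPS against bulk MEF 18 of 20 E2f targets rose and none fell, with a median log2 fold change of 3.15 against 0.10 over all genes. Of all genes tested 24.1% were higher and 23.3% lower. Gins1, a part of the replication fork helicase, rose by 5.32 ± 0.58 and Orc1, of the origin recognition complex, by 5.24 ± 0.93. Of 5 inhibitors tested 3 fell, with Cdkn1a, the p53 target that inhibits Cdk2, from 3881 ± 814 CPM in bulk MEF to 174 ± 16 CPM in iPS (SD, n = 4 each; -4.51 ± 0.21, edgeR adjusted p = 1.75e-06). Skp2 (2.51 ± 0.43) and Cdc25a (2.55 ± 0.45) rose, as did the pocket protein Rbl1 (2.48 ± 0.56), while its relative Rbl2 fell (-2.0 ± 0.61). Among other cyclins Ccnf (4.90 ± 0.53) and Ccnb1 (3.88 ± 0.51) rose and Ccng1 fell (-2.29 ± 0.34).

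Against fast MEF, iPS had 11 of 20 E2f targets higher and none lower (median 1.04), with Cdt1 at 191 ± 21.9 against 28.4 ± 8.54 CPM. Of all genes tested 18.8% were higher and 19.7% lower. The inhibitors split, with Cdkn1c higher in iPS (3.57 ± 0.60) and Cdkn1a lower (-3.38 ± 0.20) of 4 tested. E2f4, a repressor E2f, was higher (2.01 ± 0.26) and Rb1 lower (-2.69 ± 0.45). In slow against bulk MEF 2 of the 87 genes tested in these lists rose and 6 fell, against 10.5% of all genes in either direction, so nothing particular to the lists is read from it. Of 18 E2f targets tested 2 fell in slow MEF, Cdt1 (-3.40 ± 0.73; edgeR adjusted p = 0.0143) and Mcm5 (-1.72 ± 0.49; 0.0453), and of 6 inhibitors Cdkn2b fell (-1.27 ± 0.34; 0.0346).

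Fast against bulk MEF gave 16 of 20 E2f targets higher and none lower (median 1.92) and 4 of 6 inhibitors lower and none higher (median -3.05, against -0.05 over all genes). Of all genes tested 16.5% were higher and 18.4% lower. Fast MEF had 5.01 ± 2.96 CPM of Cdkn2b and bulk MEF 134 ± 50.4 CPM. In fast against slow GMP none of the 79 genes tested in these lists passed, as none of all 10057 genes tested did. The median of the 18 E2f targets tested was -0.44. In fast GMP against fast MEF 1 of 20 E2f targets rose, Mcm3 (2.40 ± 0.55), and of 12 Rb and E2f genes E2f2 rose (4.90 ± 0.76), to 139 ± 119 CPM (SD, n = 5). There 6.92% of all genes were higher, so nothing particular to the lists is read from these counts. In the interaction 1 of 20 E2f targets passed, Rrm2, a subunit of ribonucleotide reductase, with 3.65 ± 0.81 (edgeR adjusted p = 0.0305). Of all genes 0.601% passed with a positive value, and nothing is read from a count of 1.

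Genes with the most similar pattern over the 24 libraries were ranked by Pearson's r of log2 CPM, among 9241 genes of at least 20 CPM in their highest group (9242 for Ccne2). For Ccnd1 these were Tubb2a (r = 0.944), Igf2bp2 (0.944) and Spred2 (0.941), and for Ccnd2 Grina (0.925), Arhgap31 (0.918) and App (0.903). For Ccnd3 they were Phf20 (0.857), Rpl18 (0.857) and Wdr18 (0.852), and for Ccne1 Ooep (0.834), Smpdl3b (0.834) and Dnmt3l (0.817). Igf2bp2 had means of 339.9 CPM in fast MEF and 4.86 CPM in fast GMP, and App of 1147 CPM in slow MEF and 10.2 CPM in iPS. Dnmt3l stood at 255 CPM in iPS and at most 14.4 CPM as a mean of any other group. The likeness was weaker for Ccne2, led by Epb4.1l4b (0.701), Ceacam1 (0.694) and Pi16 (0.685). The libraries of a group share cells and handling, and GMP libraries share a lower depth, so these r are descriptions of 24 points in 6 clusters.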

How the data were processed

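Gene counts of 24 libraries in 6 groups were used. The authors deposited them as raw counts per gene symbol, whole numbers that had not been normalized. The submitters' processing notes name the build mm9 and the tools HTSeq, TopHat2 2.0.4 and CASAVA 1.8.2. Which annotation was used and whether counting used strand is not given in the sources used here. Reads amplified by PCR from 1000 cells are not independent molecules, so limits from a count of 0 (3 counts) cover counting error only. No row lacked a gene name, and no libraries were merged, since the 37 pairs within groups differed by at least 48.7 in chi-square per degree of freedom.

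Each comparison was fitted on its own groups with edgeR 4.0.16 in R 4.3.3 (quasi-likelihood test, robust, TMM, filterByExpr, no block), two-sided, with Benjamini-Hochberg adjustment over all genes tested and a threshold of 0.05. SE values came from the same fits. Levels are CPM with TMM factors over 24 libraries. Lengths and positions are from GENCODE M21 on GRCm38, not the authors' build. Tests were tried on simulated data first.

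The 8 members, the pathway lists and the 9 marker lists (52 genes, 1 matched by synonym) were chosen with earlier results of these data known. Genes named beside the members are, per list and comparison, up to 3 called genes of largest change in the leading direction and 2 in the other, and the 3 genes most like each cyclin. Not every gene that this rule names is reported here. Ints8, Tspan31, Oraov1 and Bysl were added for their overlap after values were seen. Counts of called genes are described with no set test.

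Endothelial markers summed to at most 118 CPM, erythroid to 8.32, mast cell and basophil to 389, lymphoid to 236 and macrophage to 1564 CPM in any library.

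Alternatives were RLE factors, no filter, DESeq2 1.42.0, a replicate block, all 24 libraries in 1 fit, thinned counts, a table without Rn45s and Lars2, and each library left out. Plots were drawn with matplotlib 3.10.9 from tables made with pandas 2.3.3 and numpy 2.4.6.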

Additional observations from a re-analysis of the deposited data

Results flagged for a closer look

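Within fast GMP, Ccnd3 stood at 1212 CPM in replicate 4 and at 139 to 309.8 CPM in the other 4 libraries, a gap too wide for the group's range by Dixon's test. By the same test Cdk2 stood apart in fast GMP replicate 2, at 59.5 CPM against 18.6 to 26.5 CPM. Cdk6 stood apart in fast MEF replicate 3, at 18.8 CPM against 7.17 to 8.84 CPM. These 3 came from 65 groups of values, and chance alone gives about 1 in 20.

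The gate difference of Ccnd2 in MEF minus that in GMP was -3.48 on the log2 scale (edgeR adjusted p = 0.038, from 4.12e-05 to 0.0905 over the alternatives).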

How the results depend on the processing

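Of 62 results of single members tested, 23 were called. Of these 13 kept their call under every alternative run, 10 lost it in at least 1 and none reversed. With all 24 libraries in 1 fit the numbers of called genes were 1246 in fast MEF against slow MEF, 1513 in fast MEF against bulk MEF, 56 in slow MEF against bulk MEF, 3170 in iPS against bulk MEF, 1675 in iPS against fast MEF, 385 in fast GMP against slow GMP, 3135 in fast GMP against fast MEF and 1069 in the interaction, and those of called members 3 in fast MEF against bulk MEF, 2 in iPS against bulk MEF and 3 in the interaction. DESeq2 called 1977 in slow MEF against bulk MEF, 86 in fast GMP against slow GMP, 2691 in fast GMP against fast MEF and 1537 in the interaction, with 5 in fast GMP against fast MEF and 3 in the interaction among members. Leaving out 1 library at a time gave 759 to 998 genes in slow against bulk MEF (1181 with all), 815 to 2298 in fast GMP against fast MEF (1433), with 1 to 4 members, and 82 to 575 in the interaction (193), with 0 to 2 members. The lowest of these came without slow MEF replicate 3 (759; 762 without bulk MEF replicate 4), without fast MEF replicate 2 (815; 823 and 848 without replicates 4 and 1) and without slow MEF replicate 4 (82; 85 to 115 without any 1 of the other 7 MEF libraries or slow GMP replicate 1), and the highest in both GMP comparisons without fast GMP replicate 1. Fewer libraries entered these fits, and the cause was otherwise not tested. No pairing by replicate number was seen, since deviations of same-numbered libraries from their group means correlated by -0.0678 to 0.0893. Whether same-numbered libraries share a culture or sort is not given, and these correlations cannot decide it. With the number as a replicate block, 41 genes and 0 members were called in the interaction, Ccnd2 there at -3.47 (adjusted p = 0.0905), and the results not called that changed sign were Ccne1 in slow against bulk MEF (-0.0254), Ccnd1 in fast against slow GMP (0.27) and Cdk6 in the interaction (-0.39). Without single libraries, differences not called that changed sign were Ccne1 in slow MEF against bulk MEF (-0.30 to -0.01 where reversed, -0.30 to 0.53 over all libraries left out), Ccnd1 in fast GMP against slow GMP (0.56 where reversed, -1.25 to 0.56 over all libraries left out), Ccne2 in fast GMP against slow GMP (-0.26 to -0.20 where reversed, -0.26 to 3.40 over all libraries left out), Cdk2 in fast GMP against slow GMP (0.28 where reversed, -2.48 to 0.28 over all libraries left out), Cdk4 in fast GMP against slow GMP (-0.14 to -0.01 where reversed, -0.14 to 0.44 over all libraries left out), Ccne2 in the interaction (-1.77 where reversed, -1.77 to 2.07 over all libraries left out) and Cdk6 in the interaction (-1.35 where reversed, -1.35 to 1.15 over all libraries left out).

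On counts without division by length the shares that moved by more than the spread were Ccnd2 71.2% in bulk MEF, 74.6% in slow MEF, 14.1% in fast MEF, 4.38% in iPS and 56.2% in fast GMP; Ccnd3 9.57% in bulk MEF, 11% in slow MEF, 7.8% in fast MEF, 57.4% in iPS and 42.9% in fast GMP; Ccnd1 14.4% in slow MEF and 38.3% in iPS; Ccne1 99.57% in iPS; Cdk4 99.77% in bulk MEF, 98.7% in slow MEF, 93.9% in fast MEF, 99.51% in iPS, 99.02% in slow GMP and 98.1% in fast GMP. Per kilobase of coding sequence the shares that moved by more than the spread were Ccnd2 71.5% in bulk MEF, 74.9% in slow MEF, 14.4% in fast MEF, 4.44% in iPS and 56.4% in fast GMP; Ccnd3 9.52% in bulk MEF, 10.9% in slow MEF, 7.85% in fast MEF, 57.5% in iPS and 42.6% in fast GMP; Ccnd1 14.2% in slow MEF and 38% in iPS; Ccne1 99.57% in iPS; Cdk4 99.79% in bulk MEF, 98.79% in slow MEF, 94.3% in fast MEF, 99.55% in iPS, 99.09% in slow GMP and 98.2% in fast GMP. Per kilobase of all annotated exons, a scale added after seeing the data, the shares that moved by more than the spread were Ccnd3 8.56% in bulk MEF, 10.2% in slow MEF, 4.7% in fast MEF, 43.3% in iPS and 44% in fast GMP; Ccnd1 25% in slow MEF, 87.3% in fast MEF and 53.6% in iPS; Ccnd2 64.8% in slow MEF, 3.11% in iPS and 54.1% in fast GMP; Cdk4 98.51% in fast MEF.

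Depth limits Ccne2 and Cdk6 most, with at most 166 and 110 counts per library, and GMP libraries, with 2098846 to 4411526 counts in all.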

Other observations

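Among cyclin-dependent kinases outside G1, Cdk1, the kinase of mitosis, was higher in iPS (52.8 ± 7.40 CPM) than in bulk MEF (9.61 ± 2.63 CPM; SD, n = 4 each), by 2.42 ± 0.36 on the log2 scale (edgeR adjusted p = 0.000441), and higher than in fast MEF (16.6 ± 3.52 CPM) by 1.67 ± 0.28 (0.0013). Cdk14 was lower in iPS, at 0.453 ± 0.287 CPM against 17.3 ± 3.28 CPM in bulk MEF (-5.24 ± 0.62; 0.000117) and 23.6 ± 8.21 CPM in fast MEF. Cdk9, which phosphorylates RNA polymerase II, fell in fast MEF compared with bulk MEF by 1.43 ± 0.27 on the log2 scale, from 138 ± 39.0 to 54.5 ± 3.96 CPM, and stood at 212 ± 88.3 CPM in iPS. Cdk19 and Cdk18, less studied kinases, moved in opposite directions in slow compared with bulk MEF: Cdk19 rose by 2.13 ± 0.58 (0.0365) and Cdk18 fell by 1.26 ± 0.31 (0.0272).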
